A study of Mus musculus with 8 samples.

Results

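Nephron progenitors are the mesenchymal stem-like cells at the rim of the developing kidney that give rise to the epithelium of every nephron. Their transcriptome at baseline, without any change to Hedgehog signalling, was described here from the 2 WT libraries out of 8 libraries in the series. Cells were sorted at E18.5, late in gestation, from kidneys of the genotype Smo +/+ ; Six2GFPcre, and their polyadenylated RNA was sequenced. Six2GFPcre is a GFP and Cre fusion placed under Six2 regulatory sequence, so the sorted cells carry it in the WT group as in the other groups. Those groups are labelled Smo KO, Smo Het and SmoM2 Transgenic. The WT libraries are therefore wild type for Smo, and they carry the Cre transgene. No group was compared with another, and 2 libraries of 1 group allow no test, so all values are descriptions. The labels do not say whether the libraries came from separate embryos or pools.

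In the fetal kidney, progenitors of the cap mesenchyme surround each tip of the ureteric bud. They renew under the control of Six2, and they leave this state when canonical Wnt signals induce Wnt4, Lhx1 and other genes of the early renal vesicle. Progenitors in turn secrete Gdnf, which makes the ureteric bud branch through its receptor Ret. Stroma, endothelium and the ureteric epithelium lie next to the cap and could be carried along in a sort.

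The listed counts summed to 10305398 in replicate 1 and 9396539 in replicate 2. Levels are given as RPKM, reads scaled by counted length and by the library total, which compares genes per length, with both libraries in the order replicate 1 and replicate 2. Of 24539 gene symbols, the 23192 with a counted length of at least 300 bases were ranked by mean RPKM. A gene was called present at 1 RPKM or more in both libraries and at the floor with at most 3 counts in each. By this rule 11302 genes were present (48.7% of those ranked), 5665 reached 10 RPKM in both libraries, 424 reached 100 and 34 reached 1000. At the floor were 8448 genes (36.4%), of which 6304 had no count in either library. The present genes took 99.2% ± 0.0713 of all counts, and they included 10623 protein-coding genes (53.3% of those ranked) and 275 long noncoding RNAs (13.3%).

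The most abundant messages were those of the translation machinery. Eef1a1, the elongation factor that brings aminoacyl-tRNA to the ribosome, stood first at 4178 and 4114 RPKM (4146 ± 45.2 RPKM, SD, n = 2). Rpl41, a small protein of the large ribosomal subunit, followed at 3177 and 3285 RPKM, and Eef2, the factor that moves the ribosome along the message, at 2123 and 2219 RPKM. Ribosomal proteins made up 16 of the 20 highest genes and 62 of the highest 100, and the 79 genes of the ribosomal protein list took 6.28% ± 0.191 of counts. The other 4 of the first 20 were Eef1a1, Eef2, Hsp90ab1 (1744 and 1733 RPKM), a cytosolic chaperone, and Rps27rt (1558 and 1540.4 RPKM), a near copy of Rps27. Rps27 had nearly the same counts as Rps27rt, so they may hold the same reads. No single message dominated the libraries. The 10 genes with the most counts took 4.42% ± 0.1303, the 100 highest 15.2% ± 0.586 and the 1000 highest 47.7% ± 1.54 (SD, n = 2). The Wilson 95% interval of any of these shares in a library was at most 0.032 percentage points to either side, which covers counting error only.

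H19, an imprinted long noncoding RNA, had rank 27 at 985 and 1398 RPKM. It was higher in replicate 2, as was its imprinted neighbour Igf2, a fetal growth factor, at 235 and 414 RPKM. H19 also took the fifth place by counts, behind Eef1a1, Eef2, Rn45s and Hsp90ab1, and the remaining genes of the first 10 by counts were Rplp0, Rpl13a, Igfbp5, Nedd4 and Rpl4. Igfbp5, a secreted protein that binds insulin-like growth factors, had 20600 and 24767 counts. Rn45s, the ribosomal RNA precursor, had 64950 and 54148 counts, or 0.603% ± 0.0382 of all counts, in libraries made from polyadenylated RNA.

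All 6 defining markers of the cap mesenchyme were present, and all lay within the first 621 of 23192 ranks by mean RPKM. Cited1 was the last of them, and it had rank 859 in replicate 2 alone and rank 1511 by CPM, counts scaled by the library total but not by length. Their positions are given in GRCm38, the RefSeq assembly of the build mm10 that the submitters name. Six2, the homeobox factor that keeps progenitors from differentiating, had 536 and 426 RPKM, a mean of 481 ± 77.8 RPKM, and rank 82. It was the only transcription factor of the list among the 100 most abundant genes, and its gene lies at chr17:85662736-85688254. Pax2, a paired-box factor needed for the kidney to form (chr19:44746601-44838269), had 131 and 170.2 RPKM and rank 278. Wt1, a zinc finger factor that progenitors share with podocytes (chr2:105126529-105173614), had 159 and 125 RPKM and rank 294. Six2 was higher per length than either in both libraries, and the ranges of Pax2 and Wt1 over the 2 libraries overlapped.

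Sall1, a zinc finger repressor that works with Six2 in these cells (chr8:89027242-89044162), had 128 and 107 RPKM and rank 376. Eya1, a transcriptional co-activator and phosphatase that binds Six2 and its relatives (chr1:14168953-14311035), had 85.2 and 79.6 RPKM and rank 592. Cited1, a co-regulator without a DNA-binding domain that marks the least committed progenitors (chrX:102247378-102252181), had 96.5 and 64.2 RPKM and rank 621. The values of Cited1 spanned those of Eya1, so these 2 neighbours in rank did not differ beyond their spread, and Sall1 was higher than both in each library.

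Of the 18 markers of the progenitor list, 17 were present (94.4%, against 48.7% of all ranked genes). At 10 RPKM or more in both libraries were 14 of them (77.8%, against 24.4%). Uncx, a homeobox factor of the kidney mesenchyme, had 245 and 259 RPKM, and Crym, a thyroid hormone binding protein, had 256 and 231 RPKM. Both were above Pax2 and below Six2. The Hox factors Hoxd11 (52.03 and 48.7 RPKM) and Hoxa11 (51.9 and 44.6 RPKM), which the metanephric kidney needs together, were close to each other. Itga8, the integrin through which the mesenchyme receives nephronectin, had 38.8 and 38.1 RPKM. Meox1 had 13.7 and 19.4 RPKM. Osr1, an early marker of the intermediate mesoderm, had 44.9 and 11.1 RPKM, the widest ratio between the libraries among the members present.

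**Figure D1:**
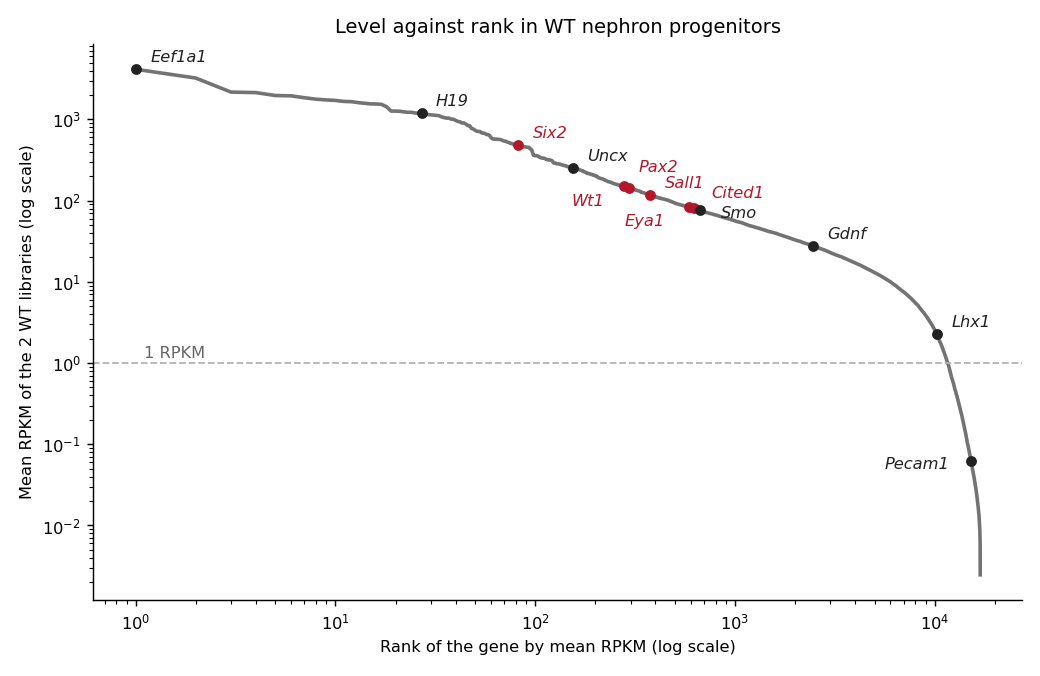
Mean RPKM of the 2 WT libraries (y axis, log scale) against the rank of each gene by that mean (x axis, log scale), over ranked genes with a mean above 0. The line passes through all genes, the 6 cap mesenchyme markers are in red between ranks 82 and 621, and other named genes are in black down to Pecam1 at the floor.

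Promoter sequence was set beside level because the levels spanned the whole range from no count to the level of Eef1a1. RefSeq promoters of 300 bases (250 before to 50 after the first listed start, GRCm38.p6) were found for 15945 of 19927 ranked protein-coding genes. Level classes in which fewer than 80% of genes had a promoter were left out, since a comparison over part of a class would be void. Genes at the floor had a median of 3 CG dinucleotides, against 23 both for genes between 10 and 100 RPKM and for those above 100, and 14 over all these genes. The median GC content was 46.7% at the floor, 62.3% between 10 and 100 RPKM and 61.3% above 100. The letters TATAAA on the gene's strand were in 18.1% of promoters at the floor, in 3.28% between 10 and 100 RPKM and in 9.17% above 100, against 8.71% of all. The letters CCAAT on either strand were in 40.4%, 39.1% and 41.3% of the same classes, against 39.0% of all.

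The starts of 4 genes show the range, and the 150 bases before each are printed 5′ to 3′ on the gene's strand, with every CG in capitals. Eef2 stands for the most abundant genes (chr10:81176481-81176630, plus strand), Six2 (chr17:85688255-85688404, minus) and Cited1 (chrX:102252182-102252331, minus) for the progenitor markers, and Alb, the serum albumin gene of the liver, for genes at the floor (chr5:90460720-90460869, plus).
Eef2: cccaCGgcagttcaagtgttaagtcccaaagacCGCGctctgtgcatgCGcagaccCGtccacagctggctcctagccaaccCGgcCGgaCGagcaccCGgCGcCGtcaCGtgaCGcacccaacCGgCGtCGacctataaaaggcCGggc
Six2: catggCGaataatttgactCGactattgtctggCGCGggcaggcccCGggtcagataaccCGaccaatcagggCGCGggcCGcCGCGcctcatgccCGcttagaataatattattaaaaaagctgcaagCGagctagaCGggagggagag
Cited1: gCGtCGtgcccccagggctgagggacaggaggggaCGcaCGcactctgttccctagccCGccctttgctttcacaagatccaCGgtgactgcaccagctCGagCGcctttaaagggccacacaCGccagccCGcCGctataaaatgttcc
Alb: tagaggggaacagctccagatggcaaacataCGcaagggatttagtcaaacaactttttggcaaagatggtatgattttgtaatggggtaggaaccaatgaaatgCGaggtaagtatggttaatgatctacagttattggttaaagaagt
These windows hold 17 CG dinucleotides for Eef2, 14 for Six2, 11 for Cited1 and 2 for Alb. TATAAA occurs in the 300-base windows of Eef2 and Cited1 but not in those of Six2 and Alb, and CCAAT in those of Six2 and Alb but not in those of Eef2 and Cited1. Alb had 0 and 1 counts, so its level was at the floor. A match of letters is a description of the window, not evidence of a bound factor.

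Of 552 transcription factors in 41 families, 311 were present (56.3%, against 48.7% of all ranked genes), 183 reached 10 RPKM in both libraries, 18 reached 100 and 139 were at the floor (25.2%, against 36.4%). Of ranked protein-coding genes alone, 53.3% were present and 32.0% were at the floor, so the excess of factors present was smaller on that basis. Behind Six2 and Egr1 (371 and 345 RPKM), an immediate early gene, came Uncx and Jund (241 and 261 RPKM), a subunit of AP-1. Nr2f2 (202 and 161 RPKM) and Nr2f6 (155 and 163 RPKM) are orphan nuclear receptors of the COUP-TF group. Tead2 (162 and 166 RPKM) is a DNA-binding partner of the Hippo effectors Yap and Taz. Id3 (145 and 166 RPKM), which blocks bHLH factors from binding DNA, and Tcf3 (138 and 153 RPKM), an E protein that Id proteins bind, had close levels.

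Sox4 (170.2 and 116 RPKM) and Sox12 (105 and 108 RPKM) led the Sox family together with Sox11 (27.3 and 30.04 RPKM), their relative in the SoxC subgroup. These 3 and Sox13 were the members above 10 RPKM in both libraries. At the floor were 9 of 19 Sox genes (47.4%, against 36.4% of all ranked genes). Among them were Sox2, a factor of stem cells and neural tissue, Sox10, of neural crest, and Sox17 and Sox18, of endothelium. Sox9, which marks ureteric tips and early tubules, had 4.63 and 4.31 RPKM.

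Within the Fox family, 20 of 38 members were present (52.6%, against 48.7% of all ranked genes and 53.3% of protein-coding ones). At the floor were 16 (42.1%, against 36.4% and 32.0%). Foxc1 led with 129.6 and 131 RPKM, followed by Foxd2 (84.7 and 83.6 RPKM), Foxp4 (79.5 and 83.4 RPKM), Foxd1 (67.7 and 55.2 RPKM) and Foxc2 (49.01 and 58.3 RPKM). Foxc1 and Foxc2 act in early kidney mesenchyme, and Foxd1 is the defining factor of the renal stroma. The endodermal factors Foxa1, Foxa2 and Foxa3 were at the floor, as was Foxi1 of intercalated cells.

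The relatives of Six2 ran from the top of the list to the floor. After Six2 came Six3, a homeobox factor best known in forebrain and eye, at 82.98 and 63.8 RPKM and rank 690, then Six5 (46.1 and 37.8 RPKM) and Six4 (3.7 and 3.22 RPKM). Six6 was at the floor. In GRCm38.p6 Six3 ends 36.5 kb before the annotated span of Six2 begins, on the same chromosome. All libraries of the series carry Six2GFPcre, and reads of a native gene and of a transgene with the same sequence cannot be told apart in these gene counts.

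Pax and Sall genes were as unequal. Besides Pax2, Pax8 (51.3 and 53.4 RPKM) was present, and Pax6 had 0.315 and 0.453 RPKM. The other 6 of 9 Pax genes were at the floor (66.7%, against 36.4% of all ranked genes). Sall2 (52.7 and 44.2 RPKM) accompanied Sall1, while Sall4 was at the floor. Among the partners of Six2, Eya4 (23.2 and 20.2 RPKM), Eya2 (15.5 and 19 RPKM) and Dach1 (11.7 and 15.9 RPKM) were present below Eya1.

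Of 39 Hox genes, 31 were present (79.5%, against 48.7% of all ranked genes). Hoxc10 was the highest at 98.8 and 98.5 RPKM, and its mean of 98.6 ± 0.192 RPKM had the smallest SD of the 30 highest factors. Paralog group 10 had the largest summed level, 188 and 175 RPKM, and groups 9 and 11 followed at 142 and 137 RPKM and 122 and 108 RPKM. All genes of groups 2 to 11 were present. None of the 3 genes of group 1 and none of the 4 of group 13, the groups at the 2 ends of each cluster, was present, and Hoxa13, Hoxb13, Hoxc13 and Hoxd13 were all at the floor. In group 12, Hoxd12 (13.4 and 9.67 RPKM) was present while Hoxc12 was at the floor. Hoxa11 and its antisense RNA overlap, and without a stated strand setting their reads cannot be told apart.

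Etv4 (106 and 118 RPKM) led the Ets family, and Etv5 had 34.4 and 33.2 RPKM; both are targets of Fgf and Ret signalling in the developing kidney. Among the effectors of canonical Wnt signals, Tcf7l1, usually a repressor, had 74.8 and 83.1 RPKM, above Tcf7 (12.1 and 14.9 RPKM), Tcf7l2 (8.23 and 9.404 RPKM) and Lef1 (1.16 and 2.06 RPKM). Glis2 (25.1 and 20.2 RPKM), Gli3 (9.103 and 9.21 RPKM), Gli1 (7.77 and 6.13 RPKM) and Gli2 (1.04 and 1.69 RPKM) were present among the Gli and Glis factors. Other leading factors were Trp53 (90.1 and 90.5 RPKM), Pbx2 (88.5 and 74.2 RPKM), Atf4 (129 and 139 RPKM) and Cited2 (86.3 and 54.8 RPKM). None of 6 Irx, 6 Gata and 12 Tbx genes was present, against 48.7% of all ranked genes. Irx factors pattern the nephron tubule, Gata3 marks the ureteric epithelium, and Tbx18 marks ureteral mesenchyme.

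**Figure D2:**
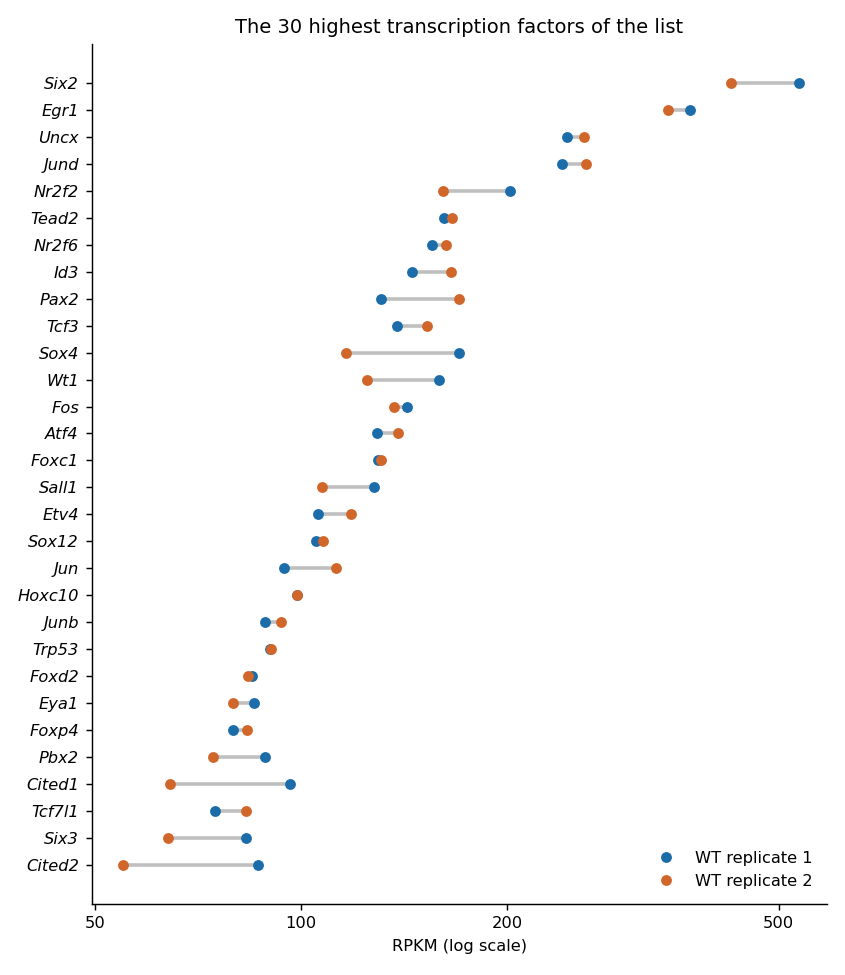
RPKM (x axis, log scale) of the 30 highest transcription factors of the list, ordered by mean, with 1 point for each of the 2 WT libraries and a line joining them. Six2 stands first, Egr1 second, and Cited1 and Cited2 have wider ratios between the libraries than most of their neighbours.

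Egr1, Jund, Fos and Jun are also immediate early genes that cell dissociation can raise. All 16 genes of the dissociation list were present (100%, against 48.7% of all ranked genes). In both libraries 4 reached 100 RPKM (25%, against 1.83%): Egr1, Jund, Ier2 (213 and 217 RPKM) and Fos (143 and 137 RPKM). Junb had 88.6 and 93.6 RPKM, Zfp36 35.9 and 35.01 RPKM and Nr4a1 26.7 and 21.8 RPKM, while the heat shock genes Hspa1a (1.81 and 1.67 RPKM) and Hspa1b (3.23 and 2.95 RPKM) were low. The summed level of the list was 1348 and 1356 RPKM in the 2 libraries. Its part in the ranks of these factors was not tested.

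Of 228 ligands and secreted antagonists ranked, 87 were present (38.2%, against 48.7% of all ranked genes), 35 reached 10 RPKM in both libraries, 3 reached 100 and 72 were at the floor (31.6%, against 36.4%). The floor share of ligands was close to the 32.0% of ranked protein-coding genes. Mdk, the heparin-binding growth factor midkine, stood first at 399.8 and 506 RPKM. Igf2 was second, and Rspo1, an R-spondin that strengthens Wnt signals, was the third at 210.0 and 128 RPKM, with rank 238 of all genes. Rspo3 had 16.8 and 19.1 RPKM and Rspo2 was at the floor.

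Wnt4, the signal through which progenitors become epithelium, had 45 and 55.6 RPKM and was the only one of 19 Wnt genes above 10 RPKM in both libraries. Wnt5b (6.96 and 6.47 RPKM), Wnt11 (2.604 and 1.87 RPKM) and Wnt5a (1.23 and 1.13 RPKM) were present at low levels. At the floor were 11 Wnt genes (57.9%, against 36.4% of all ranked genes). These included Wnt9b (0 and 1 counts) and Wnt7b (1 and 2 counts), both made by the ureteric epithelium. The receiving side was broad, with 14 of 16 Frizzled receptors and co-receptors present (87.5%, against 48.7% of all ranked genes). Ptk7 (231 and 223 RPKM), a co-receptor of planar polarity signals, Fzd2 (157 and 136 RPKM), Fzd7 (54.1 and 38.4 RPKM) and Ryk (44.5 and 44.3 RPKM) led, and the co-receptors Lrp6 (27.6 and 26.9 RPKM) and Lrp5 (23.5 and 22.01 RPKM) were close to each other. Lgr4, a receptor of R-spondins, had 22 and 22.98 RPKM, against 0.469 and 0.403 RPKM for Lgr5.

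Among Fgf signals, Fgfr1 was the leading receptor at 205 and 223 RPKM, with Fgfr2 at 28.4 and 29.8 RPKM and the decoy-like Fgfrl1 at 29.4 and 30.2 RPKM. Fgfr3 and Fgfr4 stayed below 3 RPKM. All Fgf ligands were below Fgfr1 in both libraries. Fgf1 had 30.1 and 14.02 RPKM, Fgf20, which maintains progenitors, had 21.4 and 8.304 RPKM, and Fgf10 had 11.5 and 9.19 RPKM. Fgf8, a ligand of the early nephron, had 2.58 and 4.97 RPKM, and Fgf9, another ligand known to maintain progenitors, had 0.115 and 0.104 RPKM. At the floor were 10 of 22 Fgf genes (45.5%, against 36.4% of all ranked genes).

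Bmp7, which acts on progenitors as both a survival and a commitment signal, had 74.7 and 86.4 RPKM, and Bmp1, a protease that processes procollagen, had 67.6 and 58.97 RPKM. Bmp4 had 9.898 and 5.66 RPKM and Bmp2 2.88 and 3.34 RPKM. Gdf7 was uneven, with 34.6 and 7.16 RPKM. Of the type I and type II receptors, Bmpr1a (24.4 and 25.5 RPKM), Tgfbr2 (23.6 and 16.1 RPKM), Tgfbr1 (13.8 and 17.4 RPKM), Acvr2b (15.97 and 14.6 RPKM) and Acvr1 (13.03 and 11.4 RPKM) exceeded 10 RPKM in both libraries. Bmper (56.1 and 42.4 RPKM), Twsg1 (37.96 and 32.97 RPKM) and Sfrp2 (27.2 and 49.6 RPKM) led the secreted antagonists and modulators, while Grem1, an antagonist of Bmp signals, was at the floor.

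For the Gdnf pathway, the ligand and its co-receptor were present and the kinase was not. Gdnf had 27.3 and 28.1 RPKM and Gfra1, the co-receptor that binds it, had 93.9 and 98.3 RPKM. Ret, the kinase of the ureteric tip, had 21 and 12 counts, or 0.226 and 0.141 RPKM.

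For Hedgehog, the receiving side was present and the ligands were not. Smo, the transducer that the study varied, had 77.3 and 74.7 RPKM and rank 665 in these WT libraries. Gas1, a surface protein that helps bind Hedgehog, was the second receptor of the whole list at 316 and 263 RPKM, and Boc had 26.7 and 19.8 RPKM. Ptch1, the receptor and a target of the pathway, had 17.1 and 17.3 RPKM. Shh and Dhh were at the floor, and Ihh had 5 and 6 counts.

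For Notch, Notch2 (37.8 and 41.8 RPKM), Notch1 (16.9 and 21.5 RPKM) and Notch3 (11.1 and 14.1 RPKM) were present, with Jag1 (7.09 and 4.07 RPKM), Jag2 (1.85 and 2.38 RPKM) and Dll1 (1.71 and 1.84 RPKM) as ligands below 10 RPKM. The target genes Hes1 (45.3 and 58.7 RPKM) and Heyl (15.2 and 14.8 RPKM) were present as well, and Hes5 was at the floor.

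Of 230 ranked receptors, 131 were present (57.0%, against 48.7% of all ranked genes), 72 reached 10 RPKM in both libraries, 5 reached 100 and 33 were at the floor (14.3%, against 36.4%). The 5 were Gpc3 (291 and 336 RPKM), a heparan sulfate glypican, Gas1, Ptk7, Fgfr1 and Fzd2. Itgb1 (79.4 and 83.6 RPKM), the shared integrin beta chain, and Ddr1 (85.6 and 69.9 RPKM), a collagen receptor kinase, came next with Gpc1 and Gfra1. Robo2 (47.4 and 51.1 RPKM) and its ligand Slit2 (33.1 and 30.7 RPKM), which limit where the ureteric bud forms, were both present. The insulin-like growth factor receptors Igf1r (26.96 and 31.01 RPKM) and Igf2r (21.6 and 21.97 RPKM) were present with Igf2, whereas Igf1 had 6 and 1 counts. Vegfa (31.4 and 36.97 RPKM) and Pdgfa (39.9 and 39.5 RPKM) were present, but the receptors Kdr (0.1304 and 0.0633 RPKM), Flt1 (at the floor) and Pdgfra (1.697 and 0.531 RPKM) were low or absent by the rule. Cxcl12, a chemokine, had 25.7 and 23.2 RPKM, and its receptors Cxcr4 and Ackr3 had 57.3 and 11.8 RPKM and 18.97 and 20.4 RPKM.

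**Figure D3:**
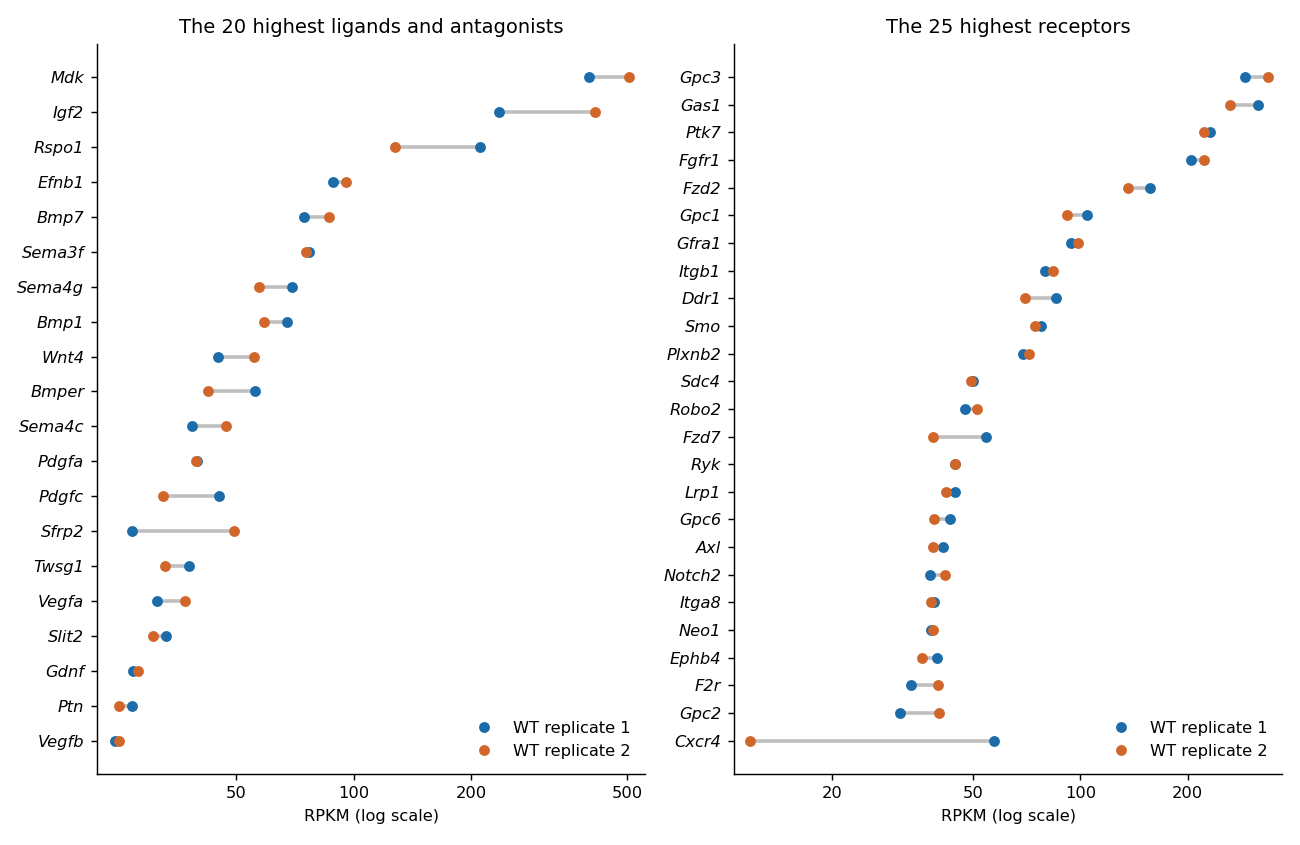
RPKM (x axes, log scale) of the 20 highest ligands and antagonists (left) and of the 25 highest receptors (right), ordered by mean, with 1 point for each of the 2 WT libraries. Mdk and Gpc3 stand first, and Cxcr4 has the widest ratio between the libraries, from 57.3 to 11.8 RPKM.

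Of 140 lineage markers in 16 lists, 52 were present (37.1%, against 48.7% of all ranked genes) and 39 were at the floor (27.9%, against 36.4%), and 17 of the 52 were those of the progenitor list. With a floor of under 10 counts in each library, 65 of the 140 were at it, and 8 rather than 2 of the 9 endothelial markers. In bulk RNA, fewer cells of a type and less RNA per cell cannot be told apart. Genes of committing progenitors and the renal vesicle were present in 11 of 16 cases (68.8%, against 48.7%). Pax8, Wnt4, Bmper and Ccnd1 (11.8 and 31.97 RPKM), a cyclin of the G1 phase, reached 10 RPKM in both libraries. The other members were lower, among them Fgf8 (2.58 and 4.97 RPKM) and Lef1 (1.16 and 2.06 RPKM). Cdh6, a cadherin of the vesicle, had 5.03 and 6.88 RPKM, Lhx1, the factor that follows Wnt4, had 1.44 and 3.14 RPKM, and Emx2 and Tfap2b were at the floor.

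Differentiated nephron segments were close to absent. Nphs1, a slit diaphragm gene of podocytes, was at the floor with 3 and 0 counts. Among 8 proximal tubule markers, Slc5a2 (2.94 and 2.52 RPKM), a glucose transporter, and Slc3a1 (2.02 and 1.57 RPKM) were present, Hnf4a had 6 and 0 counts and Slc34a1 6 and 4 counts. Of 6 markers of the loop and distal tubule, 5 were at the floor (83.3%, against 36.4% of all ranked genes), and Umod had 13 and 8 counts.

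Ureteric markers were below the presence level except Hoxb7 (13.3 and 14.8 RPKM) and Wnt11. Wnt9b, Wnt7b, Gata3 and Aqp2 were at the floor, and Calb1 had 4 and 5 counts. Among lists outside the nephron lineage, stroma had the highest summed level, 155 and 97.4 RPKM. Of its 14 markers, 7 were present (50%, close to the 48.7% of all ranked genes) and none was at the floor (against 36.4%). Foxd1 was the highest of them in both libraries, followed by Tcf21 (28.7 and 14.2 RPKM), Col1a1 (20.8 and 10.7 RPKM) and Col3a1 (15.4 and 5.99 RPKM). Pdgfrb had 3.298 and 3.05 RPKM, Dcn 2.52 and 0.615 RPKM and Tbx18 3 and 4 counts.

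Endothelial defining genes Pecam1 (3 and 2 counts), Cdh5 (5 and 4 counts) and Kdr (9 and 4 counts) had few counts. Egfl7 (3.69 and 5.57 RPKM) was the 1 member of 9 present (11.1%, against 48.7% of all ranked genes). Haemoglobin genes took 0.000505% and 0.000639% of all counts. The paired genes Hba-a1 and Hba-a2 had equal counts, so that sum counts some reads more than once. Ptprc, the defining gene of leukocytes, had 1 and 0 counts, and the macrophage genes C1qa and Csf1r had 3.21 and 1.197 RPKM and 0.815 and 0.356 RPKM, while Cd68, a lysosomal protein, had 13.9 and 17.7 RPKM. No marker of hepatocytes, of skeletal and cardiac muscle or of germ cells was present, against 48.7% of all ranked genes. Of 6 mural and smooth muscle markers, 4 were present (66.7%, against 48.7% of all ranked genes), and none reached 10 RPKM in both libraries. Star (1.66 and 1.92 RPKM) was the 1 adrenal marker above the presence level.

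**Figure D4:**
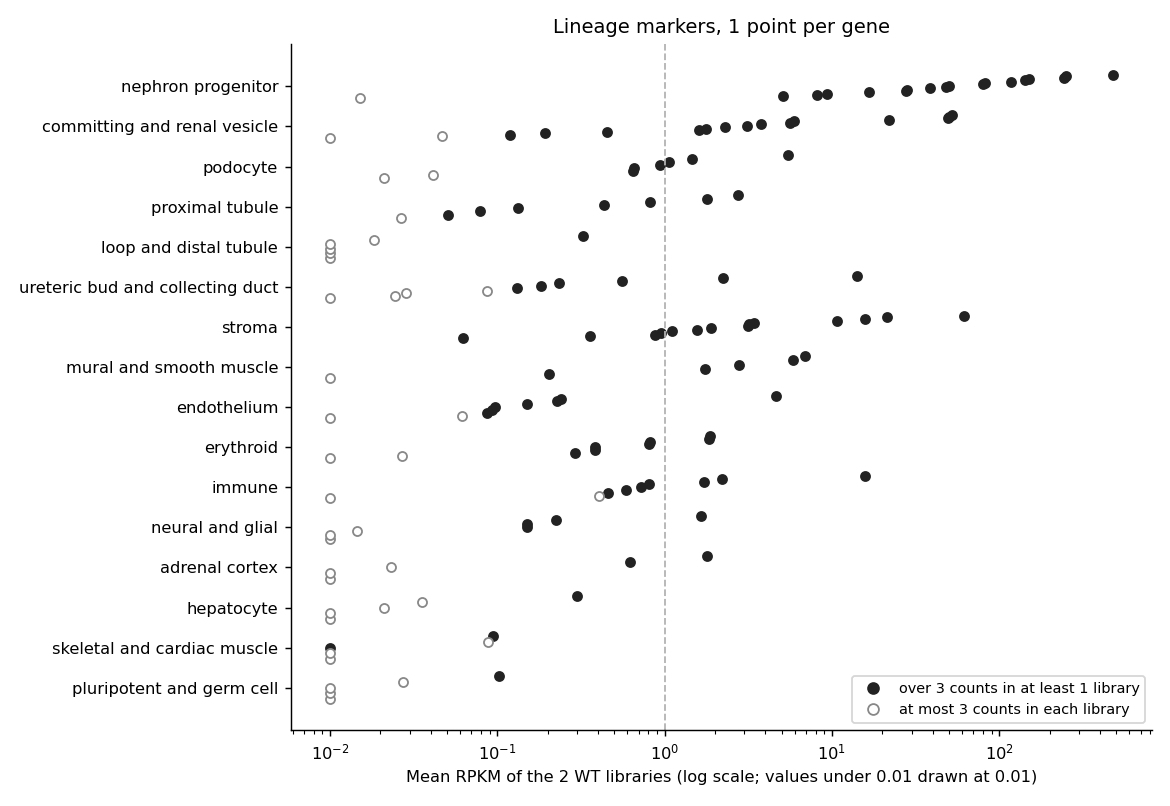
Mean RPKM of the 2 WT libraries (x axis, log scale) for the 140 lineage markers in 16 lists (rows), 1 point per gene, with genes at the floor as open circles. Of the progenitor list, 17 genes lie to the right of the 1 RPKM line, and most defining genes of other lineages lie to its left.

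Of 24 cell cycle genes, 23 were present (95.8%, against 48.7% of all ranked genes). Pcna (88.9 and 128 RPKM), the sliding clamp of replication, and Mcm2 (49.6 and 58.9 RPKM), a subunit of the replicative helicase, led the S phase genes. Top2a had 31.4 and 33.7 RPKM, Mki67 16.2 and 20.04 RPKM and Cdk1 13.2 and 13.5 RPKM. The Cdk inhibitor Cdkn1c had 57.3 and 80.4 RPKM, second of the list, while Cdkn2a had no count.

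The 2 libraries were close to each other for most genes. Across the 11302 genes present, Pearson's r of log2 RPKM was 0.983, a description over genes of 2 libraries and not of independent replicates. For the ratio of libraries, counts were scaled to CPM, a unit not per length, by the trimmed mean of M values, and counts under 3 were set to 3. Among 9736 genes with a mean of at least 10 CPM, the median ratio in either direction was 1.12-fold. At least 2-fold higher in replicate 1 were 50 genes (0.514%), and at least 2-fold higher in replicate 2 were 39 (0.401%). With scaling by total counts these numbers were 70 and 29, and the median log2 ratio of all genes moved from 0.00 to 0.07.

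Sex-linked genes set the libraries apart. The Y-linked genes Ddx3y, Kdm5d and Eif2s3y had 902, 571 and 517 counts in replicate 1 and none in replicate 2, at least 261-fold higher for Ddx3y. Xist, which silences an X chromosome in females, had 4 and 18238 counts, and its antisense partner Tsix had 3 and 2482 counts. Without a stated strand setting, reads of Xist and Tsix cannot be told apart where they overlap. The Y-linked and Xist counts are those of male cells in replicate 1 and of female cells in replicate 2. In any ratio between the 2 libraries, sex therefore cannot be told apart from other differences between them.

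Apart from sex-linked genes, the largest ratios in favour of replicate 1 began with AI506816 (392 and 3 counts) and Slc15a2 (268 and 7 counts). Slc37a1 (209 and 9 counts) and Rsph1 (424 and 36 counts) followed. Then came Cxcr4 (4.602-fold), Gdf7 (4.58-fold) and Osr1 (3.84-fold), a chemokine receptor, a ligand and a progenitor factor. In favour of replicate 2, Rps2 was 32.8-fold higher with 110 and 3131 counts. Anks1b (3.905-fold), Mthfd2 (3.67-fold), Plxna4 (3.398-fold), Hist1h1c (3.15-fold), Ccnd1 (2.87-fold), Sdk2 (2.85-fold) and Igf2bp3 (2.66-fold) followed.

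The lists differed in how they spread between the libraries. All 8 stroma markers with at least 10 CPM were higher in replicate 1 under each of 3 scalings, with a median log2 ratio of 0.91 against 0.00 over all genes, and Pdgfra (3.03-fold), Ntn1 (2.901-fold) and Col3a1 (2.44-fold) passed 2-fold. The 17 progenitor markers had a median of 0.07, and Osr1 was the 1 past 2-fold. The 7 committing markers had a median of -0.29, and the 22 cell cycle genes -0.21, where Ccnd1, Ccnd2 and Rrm2 were the 3 more than 2-fold higher in replicate 2. The summed levels of 3 other lists were 23.1 and 22.2 RPKM for the 9 immune markers, 20.04 and 14.99 RPKM for the 6 mural markers and 4.76 and 6.43 RPKM for the 9 endothelial markers. Single members went either way, with C1qa and Tagln (9.91 and 3.92 RPKM) higher in replicate 1 and Cd68 and Cspg4 (5.04 and 6.68 RPKM) higher in replicate 2. What part other cells in the sort had in these ratios was not tested.

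**Figure D5:**
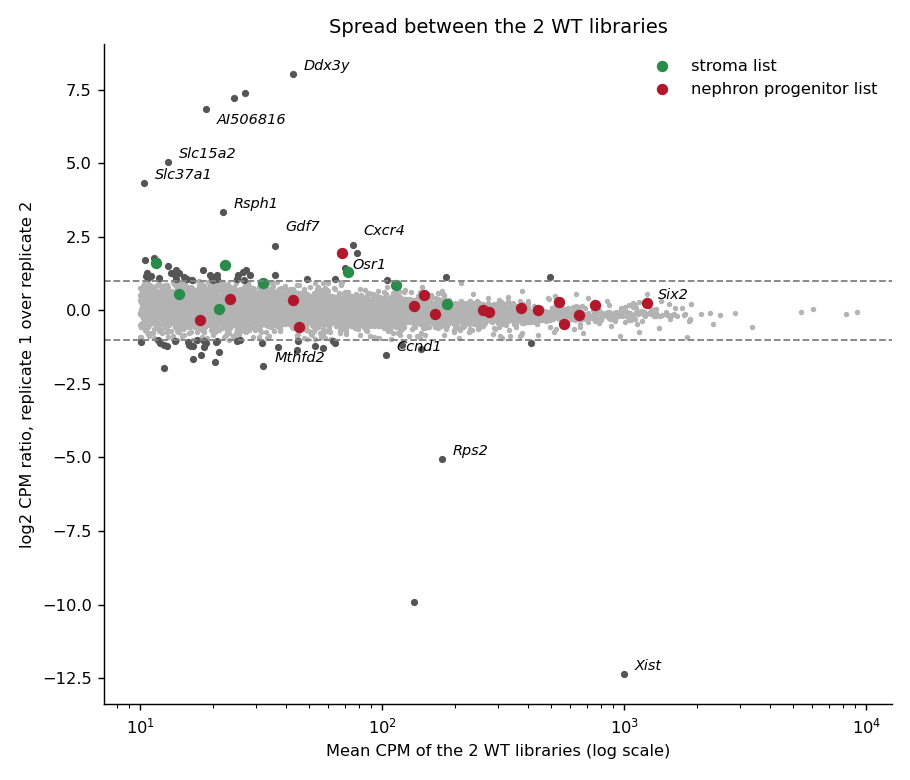
Log2 CPM ratio of WT replicate 1 over replicate 2 (y axis) against mean CPM (x axis, log scale) for 9736 genes of at least 10 CPM, each a point, with dashed lines at 2-fold. Stroma markers (green) lie at or above 0, progenitor markers (red) lie around 0 except Osr1, and Xist and Ddx3y stand at the 2 ends with other sex-linked genes.

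Some levels are uncertain because near-identical copies of a gene exist and the handling of reads that match several places is not given in the sources used here. Gapdh, a glycolytic enzyme that is abundant in nearly all cells, was listed at 17 and 13 counts, or 0.898 and 0.75 RPKM, while Actb had 712 and 587 RPKM. Among ribosomal proteins, Rps2, Rpl17 (4.69 and 6.35 RPKM), Rpl29 (6.22 and 5.83 RPKM) and Rpl21 (17.4 and 21.9 RPKM) stood far below the median of the list, 736 RPKM. The transcribed pseudogene Gm15772 had 5750 and 6115 counts and Rpl26 had 5750 and 6117 counts. Rps27rt had 6806 and 6157 counts and Rps27 had 6847 and 6196 counts. Levels of genes with such copies are therefore given as listed.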

How the data were processed

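RNA sequencing of sorted mouse nephron progenitors was used from the 2 WT libraries of the series. Per the file headers, the deposited table gives the authors' raw read count per gene symbol, a counted length and the authors' RPKM value for each library. Per the submitters' processing notes, STAR, featureCounts of the Subread package and the build mm10 were used. The annotation, the strand setting and the handling of reads with several matches are not given in the sources used here. RPKM was used as deposited, and it implied library totals of which the listed counts were 81.4% and 81.1%. Mitochondrial genes were not analysed here. Some listed genes are counted in their lists but not reported here by name. Replicate numbers were taken from the labels.

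Genes were ranked by mean RPKM over counted lengths of at least 300 bases, since libraries were selected for longer inserts. Presence was set at 1 RPKM in both libraries, higher classes at 10, 100 and 1000 RPKM, and the floor at 3 counts, or 0.284 and 0.327 CPM in replicates 1 and 2. Counts were scaled with the trimmed mean of M values in edgeR 4.0.16 (R 4.3.3), and the ratio of libraries used genes of at least 10 CPM. The ratio was tested on simulated data with known fold changes. No test between groups was made. Biotypes, positions and promoters came from RefSeq (GRCm38.p6), which matched 23724 of 24539 symbols.

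Members and gene lists were chosen with earlier results of these data known, and the ribosomal protein list was added after the data were seen. Of the listed symbols, 6 were not matched to the table. Genes named were the 6 markers, the 20 highest by RPKM, the 10 highest by counts, the 30 highest transcription factors, 20 ligands and 25 receptors, members of the cell type and check lists, floor members of a family beside a present relative, and the 10 largest ratios in each direction. Other family members, and Igf2 receptors, Notch targets and genes with near-identical copies, were named after their values were seen. Alternatives were other presence levels, TPM computed from counts, no length minimum, 1 library alone, other scalings (total counts, DESeq2 1.42.0 size factors) and other CPM minimums.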

Additional observations from a re-analysis of the deposited data

How the results depend on the processing

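The numbers of genes, transcription factors, ligands and receptors present stayed within 1.5-fold of the values given under every alternative run. Genes present ranged from 10144 at 2 RPKM to 12695 with TPM of at least 1, and from 11481 to 11665 with 1 library alone. The lineage markers at the floor were 39 of 140, and 65 when the limit was under 10 counts in each library. The median rank of the 6 markers was 335, and it was 215.5 by CPM, which is not per length, and between 322 and 399.5 with 1 library alone. By CPM, Cited1 had rank 1511, Eya1 302 and Sall1 126. The numbers of genes at least 2-fold apart depended on the CPM minimum. With at least 1 CPM they were 328 higher in replicate 1 and 208 higher in replicate 2, and with at least 50 CPM they were 9 and 11. For these changes the cause was not tested. No paired analysis was possible because no group was compared with another. Levels near 3 counts are limited by depth.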

Other observations

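The autosomal genes with the widest ratios between the WT libraries were unevenly placed over the chromosomes, a pattern noticed after the values were seen. Among 11477 autosomal genes with a mean of at least 2 CPM, 25 differed by at least 4-fold in either direction. Chromosome 17 held 9 of these 25 (36.0%) and 5.35% of the genes tested, and no other autosome held more than 3. Of the 9, Rsph1 (424 and 36 counts), a protein of motile cilia, and Slc37a1 (209 and 9 counts) are neighbours at chr17:31255019-31277296 and chr17:31295135-31350709, and both were higher in replicate 1. Rps2 was higher in replicate 2. Of the histocompatibility genes on this chromosome, H2-K1 (32 and 113 counts) was higher in replicate 2 and H2-DMb2 (49 and 8 counts) in replicate 1. H2-Q7 and H2-Q9 each had 11 and 67 counts, the same in both genes, so they may hold the same reads and are not 2 separate cases. Xdh (132 and 28 counts) and Srd5a2 (49 and 9 counts) lie close together and were higher in replicate 1.

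Outside chromosome 17, AI506816 had 392 and 3 counts, Slc15a2 268 and 7 counts and Tlr1, a receptor of innate immunity, 73 and 1 counts. In these genes 1 library was at or near the floor while the other held many times more counts. The cilia genes Cfap54 (103 and 20 counts) and Dnah5 (53 and 11 counts) were higher in replicate 1, as was Rsph1, while Foxj1, the master factor of motile cilia, had 16.9 and 12.96 RPKM.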
